A study of Mus musculus with 12 samples.

Results

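In cultures of wild-type lymph node dendritic cells, part of the early inflammatory messages fell between 2 and 4 h of stimulation with Pam3CSK4, and others held. Messages of interferon gamma and of genes that it is known to induce rose. The comparison sets the 2 arrays of wild-type cells (WT) at 4 h against the 2 arrays at 2 h, 4 of the 12 arrays of the series, chosen by genotype label and time alone. The cells were primary dendritic cells of C57BL/6 mice, isolated from lymph nodes and kept in culture, and both groups had received Pam3CSK4, a lipopeptide agonist of TLR2, labelled as 1 mg/ml. The unit of that dose could not be checked. The WT arrays at 0 h, also 2, show what was early, and the arrays labelled p38a-knockout (KO), 2 at each time, give the same step in separate libraries. Mapk14, which encodes p38α, was not lower on the KO arrays, so they are called the arrays labelled KO. There were no unstimulated arrays at 2 or 4 h, so the ligand and the time in culture cannot be told apart. The labels do not say whether the A and B arrays stand for different mice or cultures, so p-values measure the spread between these arrays.

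TLR2 signals through the adaptor MyD88 to NF-kB and MAP kinases. Their first targets include cytokine and chemokine genes together with the inhibitors that switch the pathway off again, among them the IkB proteins, TNFAIP3 and dual-specificity phosphatases. Many early messages carry AU-rich elements and are short-lived. Interferon gamma acts through its own receptor on many cell types, and its targets include immunity-related GTPases and the CXCR3 ligands CXCL9, CXCL10 and CXCL11.

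All values are log2(signal + 16) of quantile-normalized array signals, and a difference is the 4 h mean minus the 2 h mean on that scale unless another step is named. A gene is called higher or lower where its adjusted p in limma was below 0.05, and the error after ± is a standard error (SE). Of 18194 genes with a symbol, 12792 passed the expression filter. The 4 h arrays correlated with each other at r = 0.99 and the 2 h arrays at 0.988 across these genes, while arrays of different times correlated at 0.98 to 0.981. Genes are not independent replicates, so these values are descriptions. Trimmed means of the deposited signals were 91.5 and 102 at 4 h, against 83 and 84.5 at 2 h.

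Markers of dendritic cells were present at both times. Ccr7, the receptor that guides dendritic cells to lymph nodes, read 13.03 and 13.04 at 4 h, against 12.99 and 12.90 at 2 h. Flt3, the receptor for a dendritic cell growth factor, read 10.04 and 10.09 at 4 h, against 9.91 and 10.07 at 2 h, and the transcription factor Zbtb46 read 9.26 and 9.30 at 4 h, against 9.29 and 9.30 at 2 h. Some markers of other cell types passed the filter too: the B cell gene Cd79a read 5.15 and 5.01 at 4 h, against 5.47 and 5.35 at 2 h, and the T cell gene Cd3e read 5.39 and 5.30 at 4 h, against 5.69 and 5.44 at 2 h. Both lay near the filter level of 4.73, so these values do not show that B or T cells were present. Il7r, a receptor subunit of the T cell list, read 10.28 and 10.14 at 4 h, against 9.75 and 9.68 at 2 h. Levels of different probe sets are not compared. Cd4, Pax5, Cd163 and Siglec1 lay below the filter. These are bulk samples, in which fewer cells of a type and less RNA per cell cannot be told apart.

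Between 2 and 4 h, 681 genes were higher (5.32% of those tested) and 736 were lower (5.75%), 26 and 59 of them by at least 2-fold. The median over all tested genes was 0.02. The arrays of the 2 times did not overlap for any of the 1417 called genes. With 2 arrays a group a call nearly requires this, so it adds nothing to the calls. Higher calls made up 48.1% of all calls. On the deposited scale, without normalization between arrays, the median of all genes stood at 0.19, and 173 genes were higher and 57 lower, so that 75.2% of calls were higher. With single arrays left out, 376 genes were higher and 408 lower without 2 h A, 350 and 450 without 2 h B, 287 and 420 without 4 h A, and 373 and 424 without 4 h B.

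The step from 0 to 2 h was larger. In it 1079 genes were higher (8.43%), 236 of them by at least 2-fold, and 1467 were lower (11.5%), 83 of them by at least 2-fold. Between 0 and 4 h, 1063 genes were higher (8.31%) and 1267 lower (9.9%). Of the 1079 early-raised genes, 331 (30.7%) had receded, meaning that they were called lower at 4 h than at 2 h. Another 60 (5.56%) were called higher still, 465 (43.1%) held, meaning no call between 2 and 4 h and still raised against 0 h, and 223 met none of these. Of the 1467 early-lowered genes, 306 (20.9%) had recovered, 89 (6.07%) were called lower still, 580 (39.5%) held and 492 met none of these. Another 172 genes were first raised between 2 and 4 h and 202 first lowered, with no call at 2 h and a call at 4 h against both earlier times.

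**Figure D1:**
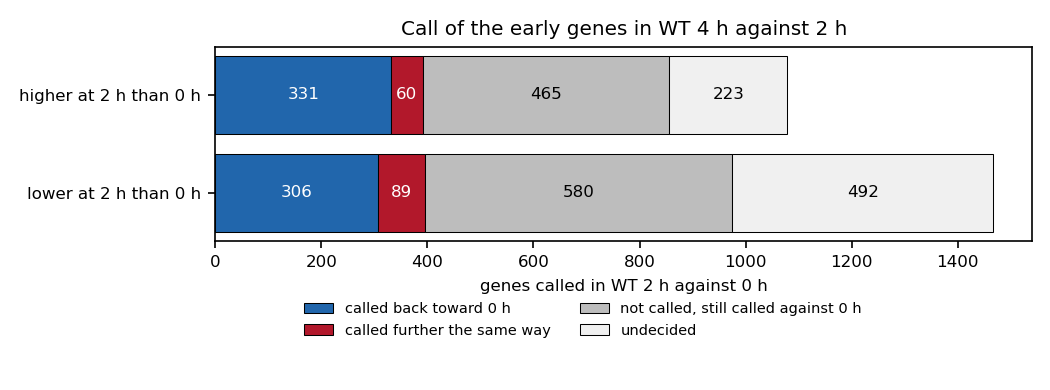
Number of genes (horizontal axis) that receded or recovered, moved further, held or met no rule at 4 h, for the genes that WT arrays called raised or lowered at 2 h. Of the early-raised genes 331 receded, 60 rose further and 465 held, and of the early-lowered genes 306 recovered, 89 fell further and 580 held.

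Of the 331 early-raised genes that receded, 141 were still called above 0 h at 4 h, 183 were no longer called and 7 had passed below the 0 h level. Among early-raised genes of at least 2-fold, the median share of the log2 change left at 4 h was 66.8% (quartiles 47.9% and 85.3%), and 133 of 236 (56.4%) had receded. Among early-lowered genes of at least 2-fold the median share left was 62.4%, and 45 of 83 (54.2%) had recovered. Of the 306 recovered genes, 60 were still below 0 h, 236 were no longer called and 10 had passed above it. Of the held genes, 406 of 465 raised and 530 of 580 lowered ones had a 95% interval of the 4 h minus 2 h difference within 1.5-fold.

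These classes share the 2 h arrays between both steps, so an error in those arrays moves the steps in opposite directions. Early genes were therefore also chosen on the arrays labelled KO, which share none with the WT step. The fit takes the spread of each gene from all 12 arrays, so calls on the KO and WT arrays are not fully independent. Of 1004 genes raised from 0 to 2 h on the KO arrays, 307 (30.6%) were lower and 45 (4.48%) higher between 2 and 4 h on the WT arrays, against 5.75% lower and 5.32% higher among all genes tested. Among the 207 raised by at least 2-fold, 114 (55.1%) were lower, with a median difference of -0.44. Of 1499 genes lowered at 2 h on the KO arrays, 254 (16.9%) were higher at 4 h on the WT arrays and 86 (5.74%) lower, and of the 88 lowered by at least 2-fold, 34 (38.6%) were higher.

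**Figure D2:**
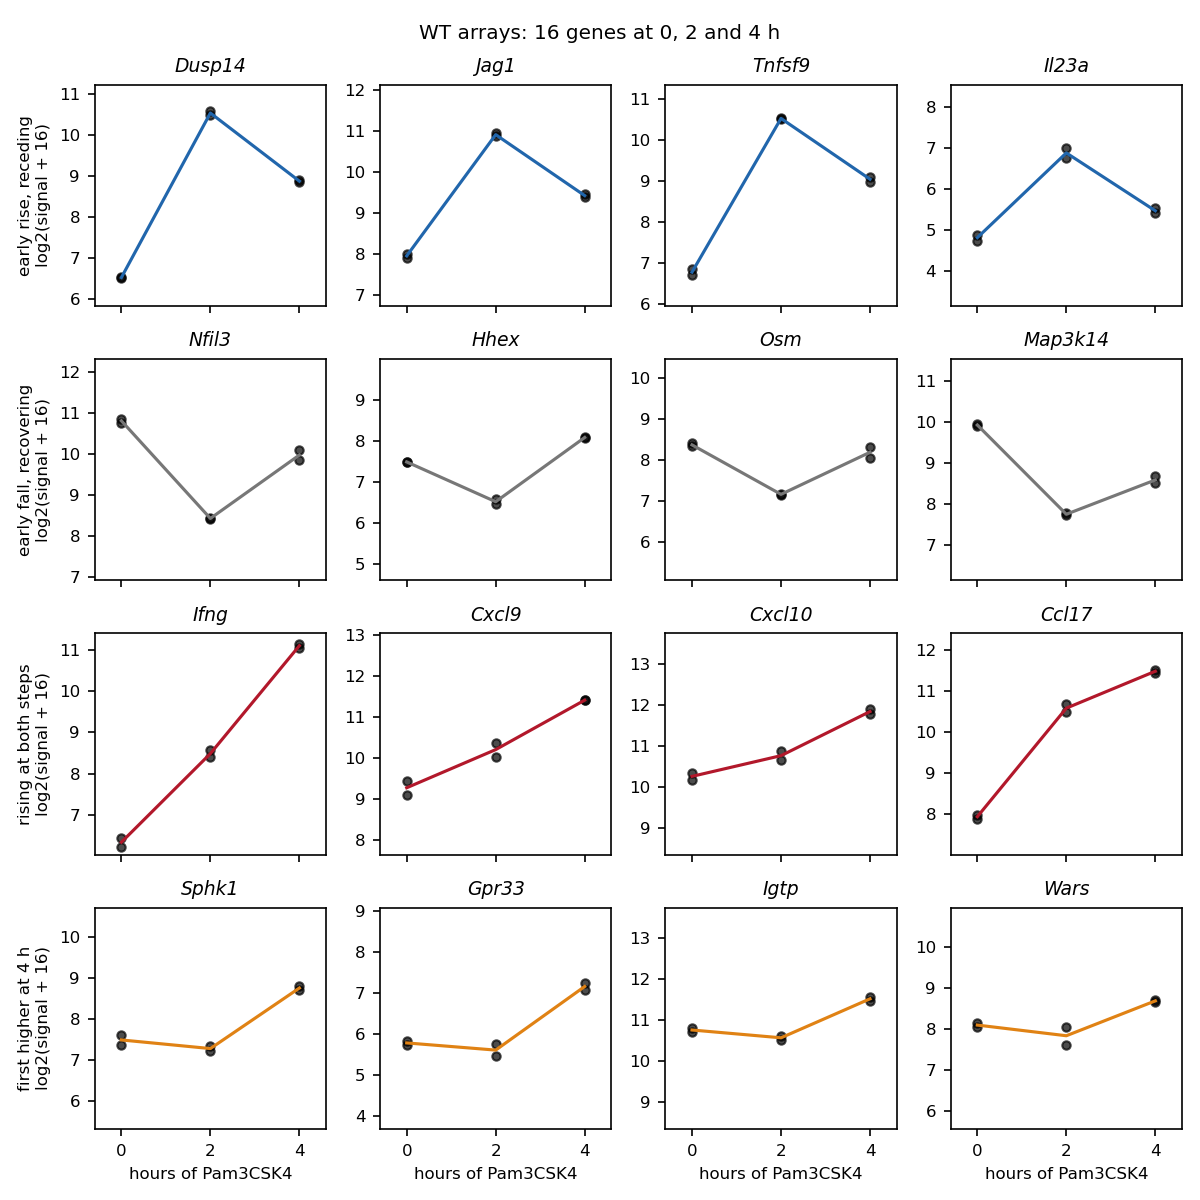
Levels of 16 genes in log2(signal + 16) against hours of Pam3CSK4, with points for single WT arrays and a line through the group means. Dusp14, Jag1, Tnfsf9 and Il23a rose by 2 h and receded, Nfil3, Hhex, Osm and Map3k14 fell by 2 h and recovered, Ifng, Cxcl9, Cxcl10 and Ccl17 rose at both steps, and Sphk1, Gpr33, Igtp and Wars stood higher at 4 h with no call at 2 h.

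The early-raised genes with the steepest return included a phosphatase, a Notch ligand and a T cell co-stimulator. Dusp14, a dual-specificity phosphatase, read 6.53 and 6.50 at 0 h, then 10.47 and 10.58 at 2 h, then 8.89 and 8.84 at 4 h. It was 3.16-fold lower at 4 h than at 2 h (-1.66 ± 0.08, adjusted p = 8.91e-09) and kept 58.6% of its early log2 change. Jag1, a ligand of Notch receptors, read 7.92 and 8.0 at 0 h, then 10.88 and 10.95 at 2 h, then 9.46 and 9.40 at 4 h, a 2.8-fold fall (-1.48 ± 0.07, adjusted p = 8.91e-09). Tnfsf9, which encodes the co-stimulatory ligand 4-1BBL, fell by 1.47 ± 0.09 to 9.10 and 8.97 at 4 h, against 10.53 and 10.50 at 2 h (adjusted p = 8.5e-08). All 3 remained called above their 0 h levels, and their 4 h arrays lay between those of 0 and 2 h.

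Uba6 and Bcl9 were no longer called above 0 h. Uba6, an enzyme that activates ubiquitin and the ubiquitin-like FAT10, read 7.52 and 7.48 at 0 h, then 9.71 and 9.76 at 2 h, then 7.59 and 7.57 at 4 h, the largest fall of the step among the genes tested (4.46-fold lower, -2.16 ± 0.10, adjusted p = 6.72e-09). Its 3 other probe sets above the filter gave -2.14, -1.67 and -1.19. Bcl9, a cofactor of beta-catenin, read 6.11 and 5.94 at 0 h, then 7.63 and 7.79 at 2 h, then 6.29 and 6.14 at 4 h (-1.50 ± 0.15, adjusted p = 1.24e-05). Its other probe set above the filter gave -0.38 (adjusted p = 0.462). Gprc5c, an orphan G protein-coupled receptor, fell by 1.88 ± 0.27 (adjusted p = 0.000301) to 5.35 and 4.44, against 6.82 and 6.73 at 2 h. Its 4 h B array lay below the filter level, where the pseudocount sets much of a difference. The other Gprc5c probe set above the filter gave -0.53 (adjusted p = 0.263).

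Promoters of the first receding genes by size that had an entry are shown, since these genes rose and receded within 4 h. They run from 250 bases before to 50 after the start site in RefSeq for GRCm38.p6, 5′ to 3′ on the gene's strand. The windows are chr11:84068308-84068607 on the minus strand for Dusp14, chr3:97227315-97227614 on the minus strand for Bcl9 and chr2:137116471-137116770 on the minus strand for Jag1. Capitals mark matches, on either strand, to any of 7 motifs: a kB-like motif (GGGA and CC with any 4 bases between), AP-1 (TGANTCA), CRE (TGACGTCA), ISRE (GAAA repeated with any 2 bases between), GAS (TTCNNNGAA), an E-box (CACGTG) and a TATA box (TATAAA).
Dusp14: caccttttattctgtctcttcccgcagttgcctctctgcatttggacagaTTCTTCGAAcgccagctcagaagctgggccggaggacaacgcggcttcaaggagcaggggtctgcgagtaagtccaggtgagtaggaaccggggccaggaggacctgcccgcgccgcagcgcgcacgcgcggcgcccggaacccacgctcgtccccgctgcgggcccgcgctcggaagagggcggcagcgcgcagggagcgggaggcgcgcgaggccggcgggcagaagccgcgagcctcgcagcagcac
Bcl9: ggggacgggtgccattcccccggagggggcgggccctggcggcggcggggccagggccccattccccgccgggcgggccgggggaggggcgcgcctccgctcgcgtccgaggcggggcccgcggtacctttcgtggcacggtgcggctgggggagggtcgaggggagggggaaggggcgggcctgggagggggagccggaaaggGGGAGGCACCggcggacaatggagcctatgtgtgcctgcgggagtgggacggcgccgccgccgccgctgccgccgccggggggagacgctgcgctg
Jag1: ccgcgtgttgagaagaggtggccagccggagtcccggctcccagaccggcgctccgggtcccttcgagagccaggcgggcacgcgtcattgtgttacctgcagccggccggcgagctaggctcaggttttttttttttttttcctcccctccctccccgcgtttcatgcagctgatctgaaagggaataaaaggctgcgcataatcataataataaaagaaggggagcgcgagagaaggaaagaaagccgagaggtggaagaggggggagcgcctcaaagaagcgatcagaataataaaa
The Dusp14 window holds 1 GAS match, the Bcl9 window 1 kB-like match and the Jag1 window no match. The kB-like letters occurred in 31% of the 255 windows of receding genes, in 31% of the 374 windows of held early-raised genes and in 26.3% of the 10324 windows of all tested genes. AP-1 letters occurred in 6.67% of receding, 8.02% of held and 5.5% of all windows. A match is a description of the letters and not a bound site.

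NF-kB targets either receded or held. Of 33 tested early targets of the pathway, 24 were called higher at 2 h, and of these 11 receded, 11 held, 1 rose further and 1 met none of these rules. Between 2 and 4 h 11 were called lower and 3 higher, with a median difference of -0.12 against 0.02 over all genes. The shares over all genes tested were 5.75% lower and 5.32% higher. Tnfaip3, which encodes the ubiquitin-editing inhibitor A20, read 10.95 and 10.87 at 4 h, against 11.79 and 11.68 at 2 h (-0.83 ± 0.09, adjusted p = 1.8e-05). Nfkbiz and Nfkbid, atypical IkB proteins of the nucleus, fell by 0.77 ± 0.12 and 1.11 ± 0.17 (adjusted p = 0.000615 and 0.000537). Tnfaip2 fell by 0.75, the adhesion molecule Icam1 by 0.53 and Ier3 by 0.64. Their 4 h arrays all lay below the 2 h arrays. Nfkbia, the classical IkBα gene, read 12.89 and 12.81 at 4 h, against 12.83 and 12.93 at 2 h (-0.03 ± 0.07, adjusted p = 0.88). Its other probe sets above the filter gave -0.28, -0.26, -0.18 and -0.15, and the one at -0.26 was called lower (adjusted p = 0.0358). Nfkbie differed by 0.04 ± 0.06 and Nfkbib by 0.00 ± 0.09, both still called above 0 h. The other probe set of Nfkbib gave -0.65 (adjusted p = 0.0402), and the gene was called lower when probe sets were averaged and without those with the suffix _x_at or _s_at. Sod2, the mitochondrial superoxide dismutase, was called higher at both steps and rose by 0.42 to 10.93 and 10.93 at 4 h, against 10.51 and 10.51 at 2 h. The deposited scale gave 0 higher and 2 lower members at a list median of 0.02, below the 0.19 of all genes, and without 2 h A, 2 h B or 4 h A 1 member was higher and 9 or 10 were lower. The calls of Tnfaip3, Nfkbiz, Tnfaip2, Icam1, Ier3 and Sod2 were lost on the deposited scale. Smaller calls also depended on single arrays: Tnip1 (-0.29, adjusted p up to 0.0756 without 2 h A, 2 h B or 4 h B), Rel (0.33, up to 0.16 without 2 h A, 2 h B or 4 h A) and Birc3 (0.20, up to 0.214 without any 1 of the 4 arrays).

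Cytokine genes parted in 2 directions. Of 24 tested, 4 rose and 6 fell, with a median of -0.15, and the others were not called. The shares over all genes tested were 5.32% higher and 5.75% lower. Ifng rose furthest of all genes tested and is described below with its target genes. Il23a, the p19 subunit of IL-23, fell by 1.41 ± 0.17 to 5.53 and 5.41 at 4 h, against 7.0 and 6.76 at 2 h (adjusted p = 4.85e-05). Csf3, the granulocyte growth factor, fell by 1.24 ± 0.12 to 7.78 and 7.66 at 4 h, against 9.15 and 8.77 at 2 h (adjusted p = 7.83e-06). Both were still called above 0 h, and their 4 h and 2 h arrays did not overlap. Tnf read 6.05 and 6.52 at 0 h, then 9.99 and 9.82 at 2 h, then 9.09 and 9.20 at 4 h, 1.69-fold lower at 4 h than at 2 h (-0.75 ± 0.13, adjusted p = 0.00125), with 79.1% of its early log2 change left. Lif, of the IL-6 family, fell by 0.68 ± 0.10, and Csf1, the macrophage growth factor, by 0.62 ± 0.11. The other member of the IL-6 family that moved, Osm, went the opposite way and had fallen early. It read 8.40 and 8.33 at 0 h, then 7.17 and 7.15 at 2 h, then 8.32 and 8.05 at 4 h (1.03 ± 0.12, adjusted p = 5.05e-05).

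Smaller changes were seen in other cytokine genes. Ebi3, a subunit of IL-27, read 10.90 and 10.85 at 4 h, against 10.58 and 10.54 at 2 h, a further rise of 0.31 ± 0.07 (adjusted p = 0.00595) on top of an early one of 3.49. That call was lost with eBayes without trend, on the deposited scale, and without 2 h B or 4 h A (adjusted p up to 0.066). Il12a, the p35 subunit, differed by 0.38 ± 0.17 (adjusted p = 0.194). Il12b, which encodes p40, differed by -0.27 ± 0.18 (adjusted p = 0.42), and both were still called above 0 h. Il6 read 12.05 and 11.96 at 4 h, against 11.98 and 11.89 at 2 h (0.07 ± 0.06, adjusted p = 0.551). Csf2 differed by 0.05 ± 0.11, Il10 by -0.33 ± 0.18 (adjusted p = 0.299), Il1a by -0.12 ± 0.15 and Il1b by 0.17 ± 0.08 (adjusted p = 0.235). Il17a rose by 0.65 ± 0.15 to 7.65 and 7.55, against 6.91 and 6.99 at 2 h (adjusted p = 0.0118), and lost the call without 2 h A or 4 h A (adjusted p up to 0.0947). Tgfb2 fell by 0.55 and lost the call without 2 h A, 2 h B or 4 h A (adjusted p up to 0.224). Without 4 h A 2 cytokine genes were higher and 5 lower. The deposited scale gave 3 higher and 2 lower and lost the calls of Tnf, Lif, Csf1 and Tgfb2, and those of Lif, Csf1 and Tgfb2 also when probe sets were averaged.

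**Figure D3:**
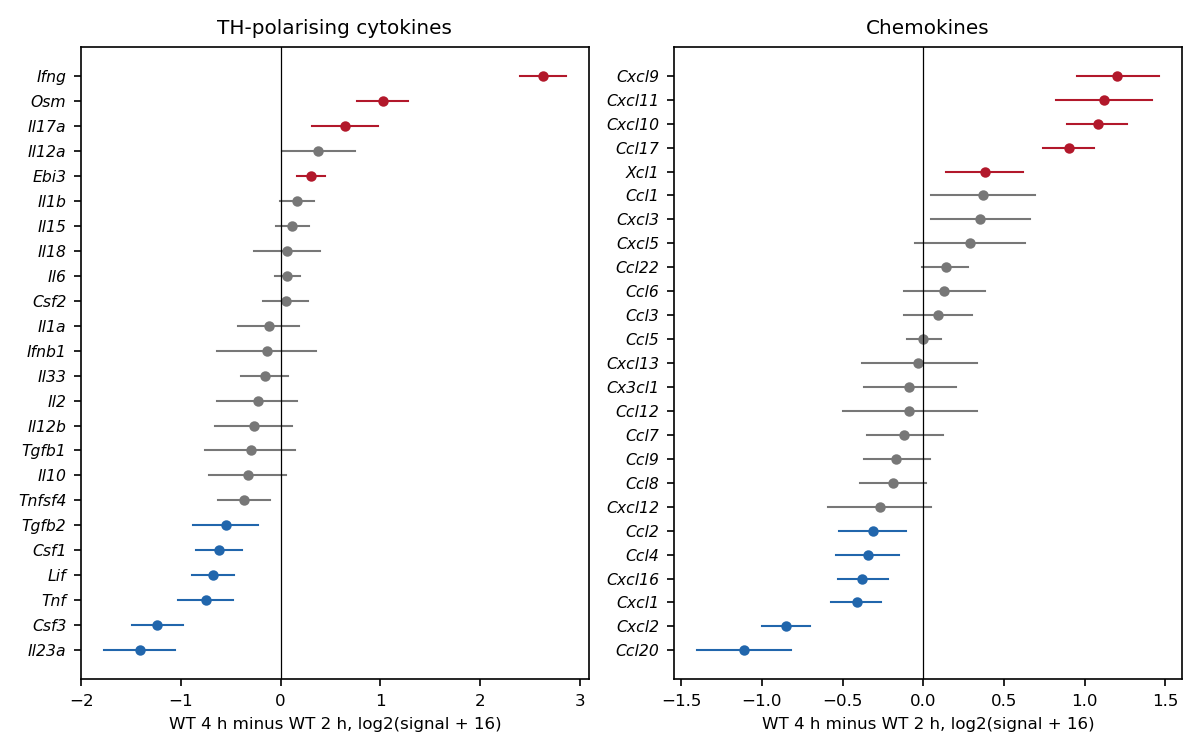
Difference of 4 h minus 2 h in log2(signal + 16) with unadjusted 95% intervals for 24 cytokine and 25 chemokine genes on WT arrays, coloured by call (red higher, blue lower, grey not called). Ifng stands apart at 2.63, Cxcl9, Cxcl11, Cxcl10 and Ccl17 lie between 0.90 and 1.20, and Il23a (-1.41), Csf3 (-1.24) and Ccl20 (-1.11) are the lowest.

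Chemokine genes also moved both ways. Of 25 tested, 5 rose and 6 fell, with a median of -0.03, against 5.32% higher and 5.75% lower of all genes. The CXCR3 ligands, which attract T and NK cells, rose together: Cxcl9 by 1.20 ± 0.12, Cxcl11 by 1.12 ± 0.14 and Cxcl10 by 1.08 ± 0.09. The other Cxcl11 probe set above the filter gave 0.66 (adjusted p = 0.19). Ccl17, a CCR4 ligand made by mature dendritic cells, read 7.89 and 7.98 at 0 h, then 10.67 and 10.49 at 2 h, then 11.52 and 11.44 at 4 h (0.90 ± 0.07, adjusted p = 1.64e-06). Ccl22, the other CCR4 ligand, differed by 0.14 ± 0.07 (adjusted p = 0.231). Ccl20, which attracts CCR6-bearing cells, fell by 1.11 ± 0.14 to 7.19 and 7.26 at 4 h, against 8.37 and 8.29 at 2 h (adjusted p = 7.05e-05). The neutrophil attractants Cxcl2 and Cxcl1 fell by 0.85 ± 0.07 and 0.41 ± 0.07 (adjusted p = 1.7e-06 and 0.00179), while Cxcl3 differed by 0.35 ± 0.14 (adjusted p = 0.141). Ccl3 differed by 0.09 ± 0.10 and Ccl9 by -0.17 ± 0.10, and both stayed called above 0 h. Ccl5 read 12.90 and 12.85 at 4 h, against 12.87 and 12.87 at 2 h. The remaining calls lost their support without single arrays: Ccl4 (-0.34, adjusted p up to 0.176 without any 1 of the 4 arrays), Ccl2 (-0.31, up to 0.419 without 2 h A, 4 h A or 4 h B), Cxcl16 (-0.38, 0.0596 without 4 h B) and Xcl1 (0.38, up to 0.225 without any 1 of the 4 arrays). The deposited scale gave 4 higher and 2 lower chemokine genes, without Cxcl1 among them. Without 4 h B, and with eBayes without trend, 4 were higher and 3 lower.

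Immediate-early transcription factors were called lower more often than higher. Of 35 tested immediate-early and AP-1 genes, 12 fell and 2 rose between 2 and 4 h, with a median of -0.21. The shares over all genes tested were 5.75% lower and 5.32% higher. Nr4a1, an orphan nuclear receptor, read 7.09 and 7.0 at 0 h, then 8.28 and 8.28 at 2 h, then 6.95 and 7.01 at 4 h (-1.31 ± 0.10, adjusted p = 7.05e-07), so that its 4 h arrays lay beside the 0 h arrays. Srf, the serum response factor that drives many immediate-early genes, fell by 0.94 ± 0.14 to 7.11 and 6.94 at 4 h, against 7.95 and 7.98 at 2 h, with 7.01 and 7.02 at 0 h. Btg2, an antiproliferative gene, fell by 0.90 ± 0.13, and Fosl2, an AP-1 subunit, by 0.72 ± 0.10, and neither had been called at 2 h. Myc fell by 0.55 ± 0.09 and was still called above 0 h. The deposited scale left 0 members higher and 1 lower, with a list median of -0.04 against 0.19 over all genes. There the calls of Srf, Btg2, Fosl2 and Myc were lost, and that of Srf also without the probe sets with the suffix _x_at or _s_at.

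Inhibitors of the pathway were not a uniform group. Of 36 tested feedback genes, 6 rose and 9 fell, with a median of -0.16, against 5.32% higher and 5.75% lower of all genes. Besides Dusp14 and Tnfaip3, the decoy receptor of IL-1, Il1r2, fell by 1.35 ± 0.10 to 9.30 and 9.35 at 4 h, against 10.60 and 10.76 at 2 h (adjusted p = 4.49e-07). The phosphatase Dusp2 fell by 0.88 ± 0.10 to 9.65 and 9.53 at 4 h, against 10.47 and 10.45 at 2 h. Zfp36, which encodes tristetraprolin, a protein that speeds the decay of AU-rich messages, went the other way. It read 10.72 and 10.74 at 0 h, then 9.76 and 9.83 at 2 h, then 10.37 and 10.24 at 4 h (0.51 ± 0.07, adjusted p = 0.000312). Zc3h12d, a relative of the RNase Regnase-1, had the same shape: 8.87 and 8.79 at 0 h, then 7.41 and 7.73 at 2 h, then 8.90 and 8.83 at 4 h (1.29 ± 0.11, adjusted p = 1.7e-06). Regnase-1 itself, Zc3h12a, differed by -0.53 ± 0.17 (adjusted p = 0.0612) and stayed called above 0 h. It was called lower with a pseudocount of 64, with the filter at the 60th percentile and in a fit of the WT arrays alone, and its other probe set gave -0.01. Among 33 tested mRNA decay factors 2 rose and 2 fell, shares near those of all genes. The deposited scale left 1 feedback gene higher and 2 lower, and the calls of Tnfaip3, Dusp2 and Zfp36 were lost. Without 2 h A 3 were higher and 7 lower, and without 4 h A or 4 h B 3 were higher and 8 lower.

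Among 27 tested MAP kinase genes 3 rose and 5 fell, against 5.32% higher and 5.75% lower of all genes. The counts of rises and falls were 2 and 1 without 2 h A or 4 h A and 2 and 2 without 2 h B. They were 3 and 3 without 4 h B and 1 and 0 on the deposited scale. Map3k14, which encodes NIK, the kinase of the non-canonical NF-kB pathway, read 9.91 and 9.96 at 0 h, then 7.74 and 7.78 at 2 h, then 8.51 and 8.68 at 4 h (0.83 ± 0.11, adjusted p = 0.000196), so that 61.5% of its early fall remained. Rps6ka5, the nuclear kinase MSK1, fell by 0.99 ± 0.13 to 7.65 and 7.92 at 4 h, against 8.61 and 8.93 at 2 h. Map3k3 rose by 0.63 ± 0.11. Mapk14 itself read 7.56 and 7.75 at 4 h, against 7.76 and 7.44 at 2 h, overlapping values with a difference of 0.05 ± 0.13 (adjusted p = 0.866). The calls of Rps6ka5 and Map3k3 were lost on the deposited scale. Map3k5 fell by 0.59 and lost its call there too, as well as without 2 h A or 4 h A (adjusted p up to 0.0874).

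Receding genes reached beyond the cytokine response. Mki67, the proliferation marker, read 6.47 and 6.45 at 0 h, then 10.52 and 10.38 at 2 h, then 9.11 and 9.05 at 4 h (-1.37 ± 0.09, adjusted p = 1.37e-07). Of 26 tested mitosis genes only Mki67 and the centromere histone Cenpa were called, both lower, and of 28 S phase genes 1 was lower and 0 higher. Cenpa fell by 1.16 ± 0.16, a call lost when probe sets were averaged (another probe set gave 0.39). The linker histone H1f2 read 9.24 and 9.02 at 0 h, then 10.00 and 9.96 at 2 h, then 8.63 and 8.44 at 4 h, where it had passed below its start (-1.45 ± 0.10, adjusted p = 3.25e-07). The survival gene Bcl2l1, which encodes BCL-XL, fell by 0.88 ± 0.09 and the pro-apoptotic Bcl2l11, which encodes BIM, by 0.71 ± 0.08. Both calls were lost on the deposited scale. Pmaip1, the pro-apoptotic NOXA, rose by 0.71 ± 0.08 to 9.55 and 9.53 at 4 h, against 8.85 and 8.81 at 2 h, after an early fall of 1.72. Of 22 tested BCL2 family and caspase genes 4 rose and 4 fell, against 5.32% higher and 5.75% lower of all genes. The counts were 2 higher and 3 or 4 lower without any 1 of the 4 arrays.

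Other inflammatory genes met the rule for holding. Cd40, the receptor for T cell help, read 10.37 and 10.12 at 0 h, then 12.56 and 12.50 at 2 h, then 12.45 and 12.38 at 4 h (-0.12 ± 0.07, adjusted p = 0.372), with 94.9% of its early log2 change left. Ptgs2, the inducible cyclooxygenase, kept 90.8% and Il1a 95.9%. Cd70, a ligand of CD27 on T cells, read 10.55 and 10.51 at 4 h, against 10.85 and 10.94 at 2 h (-0.36 ± 0.12, adjusted p = 0.0702), and was called lower with trimmed-mean scaling, with a pseudocount of 64, in a fit of the WT arrays alone and with the replicate letter as a block. Held falls included the cAMP phosphodiesterase gene Pde3b (-0.12 ± 0.09) and Trim7, a ubiquitin ligase (-0.10 ± 0.14), which kept an early fall of 1.43 and 1.88. Among 22 co-stimulation and maturation genes 5 rose and 4 fell, against 5.32% higher and 5.75% lower of all genes. Their median was 0.02, and it was -0.08 with trimmed-mean scaling, where 3 rose and 6 fell. With any 1 of the 4 arrays left out 3 or 4 of these genes rose and 2 fell, and on the deposited scale 2 rose and 1 fell. Pdcd1lg2, which encodes the inhibitory ligand PD-L2, rose by 0.83 ± 0.08 to 9.54 and 9.42 at 4 h, against 8.69 and 8.60 at 2 h (adjusted p = 1.22e-05). Cd83, the maturation marker, differed by -0.05 ± 0.06 (adjusted p = 0.691).

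Early-lowered genes that recovered included transcription factors of dendritic cells. Nfil3, a leucine zipper factor needed for the cross-presenting lineage, read 10.75 and 10.85 at 0 h, then 8.41 and 8.43 at 2 h, then 9.84 and 10.09 at 4 h, 2.92-fold higher at 4 h than at 2 h (1.55 ± 0.12, adjusted p = 6.7e-07) with 35.1% of its early fall left. Hhex, a homeobox factor, read 7.49 and 7.48 at 0 h, then 6.57 and 6.46 at 2 h, then 8.09 and 8.07 at 4 h, which passed its start (2.95-fold higher at 4 h than at 2 h, 1.56 ± 0.10, adjusted p = 1.37e-07). Batf3, a factor of the same lineage as Nfil3, rose by 0.68 ± 0.08 to 9.54 and 9.41 at 4 h, against 8.88 and 8.71 at 2 h. Irf4, a factor of the other conventional lineage, fell by 0.70 ± 0.10 to 9.16 and 8.92 at 4 h, against 9.79 and 9.69 at 2 h, and Tcf4, a plasmacytoid factor, rose by 0.54 ± 0.11. In all, 4 of 20 tested lineage factors rose and 1 fell, against 5.32% higher and 5.75% lower of all genes. Of the 4, 2 had recovered from an early fall and 2 were first raised after 2 h. On the deposited scale 2 factors were higher and 0 lower. Otud1, a deubiquitinase, rose by 1.11 ± 0.17, the membrane protein gene Flrt3 by 1.17 ± 0.08 and the magnesium transporter gene Nipa1 by 1.28 ± 0.16, each with 4 h arrays above the 2 h arrays. The calls of Irf4 and Tcf4 were lost on the deposited scale. The summed signals of conventional dendritic cell markers were 14110 and 13580 at 4 h, against 14750 and 14640 at 2 h (1 of 16 higher, 4 lower), and those of plasmacytoid markers 9778 and 9337 at 4 h, against 10210 and 9748 at 2 h (2 of 9 higher, 3 lower). Without Klk1, the member of highest signal, the plasmacytoid sums were 7654 and 7231 at 4 h, against 7711 and 7337 at 2 h. The part of these types of dendritic cell in these results was not tested.

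Ifng had the largest rise of the step. It read 6.22 and 6.43 at 0 h, then 8.57 and 8.40 at 2 h, then 11.16 and 11.07 at 4 h, 6.2-fold higher at 4 h than at 2 h (2.63 ± 0.11, adjusted p = 1.62e-09), after an early rise of 2.16. The 3 times did not overlap. Interferon gamma is made chiefly by NK and T cells. The counts of their markers stand beside 5.32% higher and 5.75% lower of all genes tested. Of 10 tested NK and innate lymphoid markers, 2 rose (Ncr1 by 0.85 and Gzmb by 0.34) and 2 fell (Klrd1 by 0.42 and Gzma by 0.48), and their summed signals were 2733 and 2556 at 4 h, against 2638 and 2534 at 2 h. Without Gzmb, the member of highest signal, the sums were 1594 and 1544 at 4 h, against 1747 and 1736 at 2 h. All 4 of these calls were lost without single arrays (Ncr1 without 2 h B, 4 h A or 4 h B, adjusted p up to 0.1, Klrd1 without 2 h A, 2 h B or 4 h A, up to 0.153, Gzma without 4 h A, 0.0559, and Gzmb without any 1 of the 4 arrays, up to 0.279). Of 14 tested T cell markers 1 rose and 2 fell, and their summed signals were 2624 and 2537 at 4 h, against 2427 and 2349 at 2 h. Without Il7r, the member that rose, the T cell sums were 1400 and 1423 at 4 h, against 1582 and 1544 at 2 h. The list's median was -0.15, and the calls of the 2 lower members were lost without single arrays (Cd8a without 0 h A or any 1 of the 4 arrays, adjusted p up to 0.3, and Lef1 without 2 h A, 4 h A or 4 h B, up to 0.143). The part of these cells in the rise of Ifng was not tested.

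Genes that interferon gamma is known to induce rose as well. Of 20 tested GTPases and partners 13 rose and 0 fell, with a median of 0.60 against 0.02 over all genes and 5.32% called higher among all genes. Cxcl9 read 9.44 and 9.10 at 0 h, then 10.37 and 10.03 at 2 h, then 11.40 and 11.41 at 4 h, 2.3-fold higher at 4 h than at 2 h (1.20 ± 0.12, adjusted p = 1.09e-05). Cxcl10 read 10.33 and 10.17 at 0 h, then 10.87 and 10.64 at 2 h, then 11.78 and 11.88 at 4 h (1.08 ± 0.09, adjusted p = 1.26e-06). Both stepped up at each interval, with the larger step after 2 h. Igtp and Irgm2, immunity-related GTPases that act on the vacuoles of intracellular parasites, had not risen at 2 h. Igtp read 10.81 and 10.69 at 0 h, then 10.61 and 10.51 at 2 h, then 11.56 and 11.46 at 4 h (0.95 ± 0.08, adjusted p = 1.94e-06). Irgm2 had been called lower at 2 h and read 10.20 and 10.18 at 4 h, against 9.33 and 9.15 at 2 h (0.94 ± 0.10, adjusted p = 1.61e-05). Irf1, the transcription factor that many of these genes need, differed by -0.01 ± 0.08 (adjusted p = 0.955). On the deposited scale 10 of the 20 were higher and 0 lower, at a median of 0.77 against 0.19 over all genes. With any 1 of the 4 arrays left out, 11 to 13 were higher and 0 lower.

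The promoters of Ifng, Cxcl9 and Cxcl10 were chosen after their values were seen, because these genes rose at both steps. They are given as above, for GRCm38.p6, from chr10:118440796-118441095 on the plus strand for Ifng, chr5:92328030-92328329 on the minus strand for Cxcl9 and chr5:92348840-92349139 on the minus strand for Cxcl10.
Ifng: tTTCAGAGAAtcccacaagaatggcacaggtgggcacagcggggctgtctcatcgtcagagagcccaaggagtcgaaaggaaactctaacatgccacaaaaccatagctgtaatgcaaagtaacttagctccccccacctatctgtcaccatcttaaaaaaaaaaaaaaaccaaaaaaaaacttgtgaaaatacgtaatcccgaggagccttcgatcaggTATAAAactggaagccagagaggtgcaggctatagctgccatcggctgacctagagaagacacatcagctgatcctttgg
Cxcl9: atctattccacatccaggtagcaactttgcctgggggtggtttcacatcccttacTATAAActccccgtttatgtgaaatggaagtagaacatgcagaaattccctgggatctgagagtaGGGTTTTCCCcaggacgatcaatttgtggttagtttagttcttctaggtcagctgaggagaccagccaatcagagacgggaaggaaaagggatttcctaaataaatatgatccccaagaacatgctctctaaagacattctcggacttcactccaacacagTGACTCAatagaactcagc
Cxcl10: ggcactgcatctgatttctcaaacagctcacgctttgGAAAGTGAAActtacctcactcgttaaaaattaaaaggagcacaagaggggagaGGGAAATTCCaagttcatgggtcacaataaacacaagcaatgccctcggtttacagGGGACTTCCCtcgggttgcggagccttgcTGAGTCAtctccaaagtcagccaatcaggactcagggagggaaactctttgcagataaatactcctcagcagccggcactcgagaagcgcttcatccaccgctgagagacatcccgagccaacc
The Ifng window holds 1 GAS match and 1 TATA match, the Cxcl9 window 1 kB-like, 1 AP-1 and 1 TATA match, and the Cxcl10 window 2 kB-like, 1 AP-1 and 1 ISRE match. Of the 60 genes that rose at both steps 47 had a window. ISRE letters occurred in 7 of the 47 (14.9%) and in 3.07% of all tested genes' windows, AP-1 letters in 9 (19.1%) against 5.5%, GAS letters in 6 (12.8%) against 6.78%, and TATA letters in 10 (21.3%) against 8%. The kB-like letters occurred in 31.9% of the 47 windows against 26.3%, CRE letters in 2.13% against 3.07% and E-box letters in 2.13% against 10%. These shares describe the letters only.

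Of 35 tested genes of the type I interferon response 9 rose and 2 fell, against 5.32% higher and 5.75% lower of all genes. The median was 0.09, against 0.02 over all genes, and some of the list's genes belong to both interferon lists. Trim21, an antibody receptor and ubiquitin ligase of the cytosol, rose by 0.96 ± 0.10 to 8.89 and 8.75 at 4 h, against 7.92 and 7.81 at 2 h (adjusted p = 1.9e-05). Ifi47, a GTPase, rose by 0.60 ± 0.07 to 11.66 and 11.55, against 11.07 and 10.92 at 2 h. Ifit2 rose by 0.53 ± 0.08 after an early fall of 0.55, and its call was lost on the deposited scale. Ifnb1 lay near the filter at 4.81 and 5.10 at 4 h, against 5.22 and 4.98 at 2 h, with no call (-0.14 ± 0.23). On the deposited scale 3 of the 35 were higher and 0 lower, without 2 h B or 4 h A 4 were higher and 2 lower, and with eBayes without trend 4 were higher and 0 lower.

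Other genes rose at both steps, or were first called after 2 h. Calhm6, a membrane channel family gene, read 7.21 and 6.90 at 0 h, then 8.08 and 7.66 at 2 h, then 9.54 and 9.30 at 4 h (1.55 ± 0.14, adjusted p = 3.26e-06). Alcam, an adhesion molecule that binds CD6 on T cells, read 8.08 and 8.17 at 0 h, then 9.05 and 8.94 at 2 h, then 10.25 and 10.24 at 4 h (1.25 ± 0.09, adjusted p = 3.87e-07). The Alcam call was lost when its probe sets were averaged (0.36, adjusted p = 0.085). S100a8, a calcium-binding protein of neutrophils and monocytes, rose by 1.24 ± 0.14 to 8.05 and 8.14 at 4 h, against 6.74 and 6.98 at 2 h. It was the only called member of 9 tested neutrophil markers, against 5.32% higher among all genes. The summed signals of these markers were 522.2 and 530.8 at 4 h, against 329.4 and 365.5 at 2 h. Without S100a8 the sums were 272.4 and 264.3 at 4 h, against 238.2 and 255.6 at 2 h, and the list's median was -0.11. The part of neutrophils in the rise of S100a8 was not tested.

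Of the 172 genes that first rose after 2 h, 14 did so by at least 2-fold. Gpr33, an orphan receptor related to chemoattractant receptors, read 5.75 and 5.83 at 0 h, then 5.47 and 5.76 at 2 h, then 7.08 and 7.25 at 4 h (1.55 ± 0.17, adjusted p = 2.64e-05). Sphk1, which makes the lipid signal sphingosine 1-phosphate, read 7.63 and 7.37 at 0 h, then 7.35 and 7.23 at 2 h, then 8.82 and 8.71 at 4 h, 2.78-fold higher at 4 h than at 2 h (1.47 ± 0.11, adjusted p = 5.43e-07). Abcc4, an exporter of cyclic nucleotides and prostanoids, rose by 1.05 ± 0.12 to 8.20 and 8.07 at 4 h, against 7.22 and 6.95 at 2 h. In each of them the 0 h and 2 h arrays lay together and the 4 h arrays above both. Umad1 rose by 1.22 ± 0.10 to 9.30 and 9.48 at 4 h, against 8.12 and 8.21 at 2 h. The other probe sets of Sphk1 and Umad1 above the filter gave 0.56 and 0.51 (adjusted p = 0.173 and 0.101). Wars, the tryptophan tRNA synthetase, rose by 0.85 ± 0.13 to 8.66 and 8.70 at 4 h, against 8.05 and 7.61 at 2 h (adjusted p = 0.000439). Of the 24 tested amino acid transport and tRNA charging genes, 3 rose and 2 fell, against 5.32% higher and 5.75% lower of all genes. The counts were 1 and 0 without 2 h A or 4 h A. Atrnl1 rose by 1.20 ± 0.09, a call lost without the probe sets with the suffix _x_at or _s_at (adjusted p = 0.0643), and Psd3 by 1.30 ± 0.25, a call at the threshold without 4 h A (adjusted p = 0.05).

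The promoters of the first genes of this class by size with an entry are shown beside those above, because these genes were not called at 2 h. Their windows are chr12:52028014-52028313 on the minus strand for Gpr33, chr11:116530850-116531149 on the plus strand for Sphk1 (the first of 5 entries) and chr6:8259038-8259337 on the plus strand for Umad1, again for GRCm38.p6.
Gpr33: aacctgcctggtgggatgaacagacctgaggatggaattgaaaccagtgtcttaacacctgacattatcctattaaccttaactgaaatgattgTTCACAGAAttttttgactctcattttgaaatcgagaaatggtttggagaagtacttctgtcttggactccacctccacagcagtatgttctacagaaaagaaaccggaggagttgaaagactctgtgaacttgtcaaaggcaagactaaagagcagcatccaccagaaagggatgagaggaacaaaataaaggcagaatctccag
Sphk1: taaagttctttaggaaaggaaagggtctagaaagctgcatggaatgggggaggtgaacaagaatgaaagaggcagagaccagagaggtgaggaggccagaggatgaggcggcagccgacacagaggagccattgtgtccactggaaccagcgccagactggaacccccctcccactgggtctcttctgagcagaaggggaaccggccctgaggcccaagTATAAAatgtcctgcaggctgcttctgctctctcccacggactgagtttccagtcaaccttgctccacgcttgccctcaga
Umad1: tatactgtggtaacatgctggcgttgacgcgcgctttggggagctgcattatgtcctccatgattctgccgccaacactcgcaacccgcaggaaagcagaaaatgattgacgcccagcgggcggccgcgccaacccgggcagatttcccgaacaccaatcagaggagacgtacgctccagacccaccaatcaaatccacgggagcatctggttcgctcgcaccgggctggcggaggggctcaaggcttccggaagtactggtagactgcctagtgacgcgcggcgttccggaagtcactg
The Gpr33 window holds 1 GAS match, the Sphk1 window 1 TATA match and the Umad1 window no match. Of the 127 windows of this class 23.6% held the kB-like letters, 6.3% the AP-1 letters, 4.72% the ISRE letters and 10.2% the GAS letters, against 26.3%, 5.5%, 3.07% and 6.78% of all tested genes' windows.

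Chaperone genes were called higher more often than lower. Of 17 tested heat shock genes 9 rose and 2 fell, with a median of 0.33, against 5.32% higher and 5.75% lower of all genes. Chordc1, a partner of HSP90, read 10.12 and 9.95 at 0 h, then 9.45 and 9.32 at 2 h, then 10.20 and 10.18 at 4 h (0.80 ± 0.08, adjusted p = 1.41e-05). Hsph1, a nucleotide exchange factor of HSP70, rose by 0.65 ± 0.09 to 8.58 and 8.53 at 4 h, against 7.97 and 7.83 at 2 h, and the mitochondrial chaperonin Hspd1 by 0.58 ± 0.10 to 10.19 and 10.04, against 9.61 and 9.46 at 2 h. The first 2 had been called lower at 2 h and were not called against 0 h at 4 h. Hspb1, a small heat shock protein, fell by 0.45 ± 0.08. On the deposited scale 2 were higher and 0 lower at a median of 0.43 against 0.19 over all genes, and Hspd1 and Hspb1 were no longer called. With eBayes without trend 5 were higher and 1 lower, and when probe sets were averaged 4 were higher and 2 lower. Without 2 h A 7 were higher, and without 2 h B or 4 h A 6 were.

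Of 40 ribosome biogenesis genes and Myc targets 7 rose and Myc alone fell, with a median of 0.18. The shares over all genes tested were 5.32% higher and 5.75% lower. Dkc1, the pseudouridine synthase dyskerin, rose by 0.57 ± 0.11 to 8.52 and 8.40 at 4 h, against 7.90 and 7.87 at 2 h. The nucleolar Npm1 rose by 0.33, a call lost without 4 h B (adjusted p = 0.0582), and the RNA helicase Ddx10 by 0.50, lost without 2 h B or 4 h A (up to 0.0945) and when probe sets were averaged. On the deposited scale 2 of the 40 were higher and 0 lower, Dkc1, Npm1, Ddx10 and Myc not among them, and 3 were higher without 2 h B, without 4 h A and without 4 h B. None of 28 cytosolic ribosomal protein genes was called. Of 32 respiratory chain genes 2 rose and 0 fell, of 31 proteasome genes 2 rose and 0 fell, and of 25 glycolysis and hypoxia genes 1 rose and 1 fell, shares near those of all genes. With any 1 of the 4 arrays left out 0 to 2 of the respiratory chain and of the proteasome genes rose, and 0 glycolysis genes rose and 1 fell. Of 28 genes of the unfolded protein and integrated stress responses 1 rose and 5 fell, among them Herpud1, which serves protein degradation at the endoplasmic reticulum (-0.52 ± 0.08, adjusted p = 0.000568, lost on the deposited scale). Without 2 h A 0 of them rose and 3 fell. Of 10 cholesterol export and lipoprotein genes 2 rose and 5 fell. Abca1, the cholesterol exporter, fell by 0.61 ± 0.11 to 7.65 and 7.74 at 4 h, against 8.43 and 8.19 at 2 h. That call was lost on the deposited scale and when probe sets were averaged, where the other probe sets gave 0.05 each. In that list 0 rose and 0 fell on the deposited scale, 2 rose and 2 fell with eBayes without trend, and the counts were 1 and 1 without 2 h A, 0 and 3 without 2 h B, 0 and 1 without 4 h A and 1 and 2 without 4 h B.

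In the remaining lists the counts of calls were small, but several shares lay above the 5.32% higher and 5.75% lower of all genes tested. Of 22 TNF superfamily ligands and receptors 3 rose and 2 fell, of 23 Toll-like receptors and adaptors 3 rose and 1 fell, and of 17 migratory dendritic cell markers 4 rose and 0 fell. Of 32 lysosome and autophagy genes 2 rose and 3 fell, of 22 NRF2 targets 2 rose and 2 fell, and of 20 cholesterol biosynthesis genes 1 rose and 0 fell. Among 6 plasma cell markers 0 rose and 2 fell, and 0 of 4 erythroid and platelet markers were called. With any 1 of the 4 arrays left out, 0 or 1 of the TNF superfamily rose and 2 fell, 1 Toll-like receptor or adaptor gene rose and 0 or 1 fell, 2 or 3 migratory markers rose, and 1 or 2 lysosome and autophagy genes and NRF2 targets rose, with 0 lower lysosome genes and 0 or 1 lower NRF2 targets. The cholesterol biosynthesis call was lost without 2 h A, 2 h B or 4 h A, and 1 or 2 plasma cell markers fell. Each of these lists held at most 2 calls when arrays were left on the deposited scale.

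**Figure D4:**
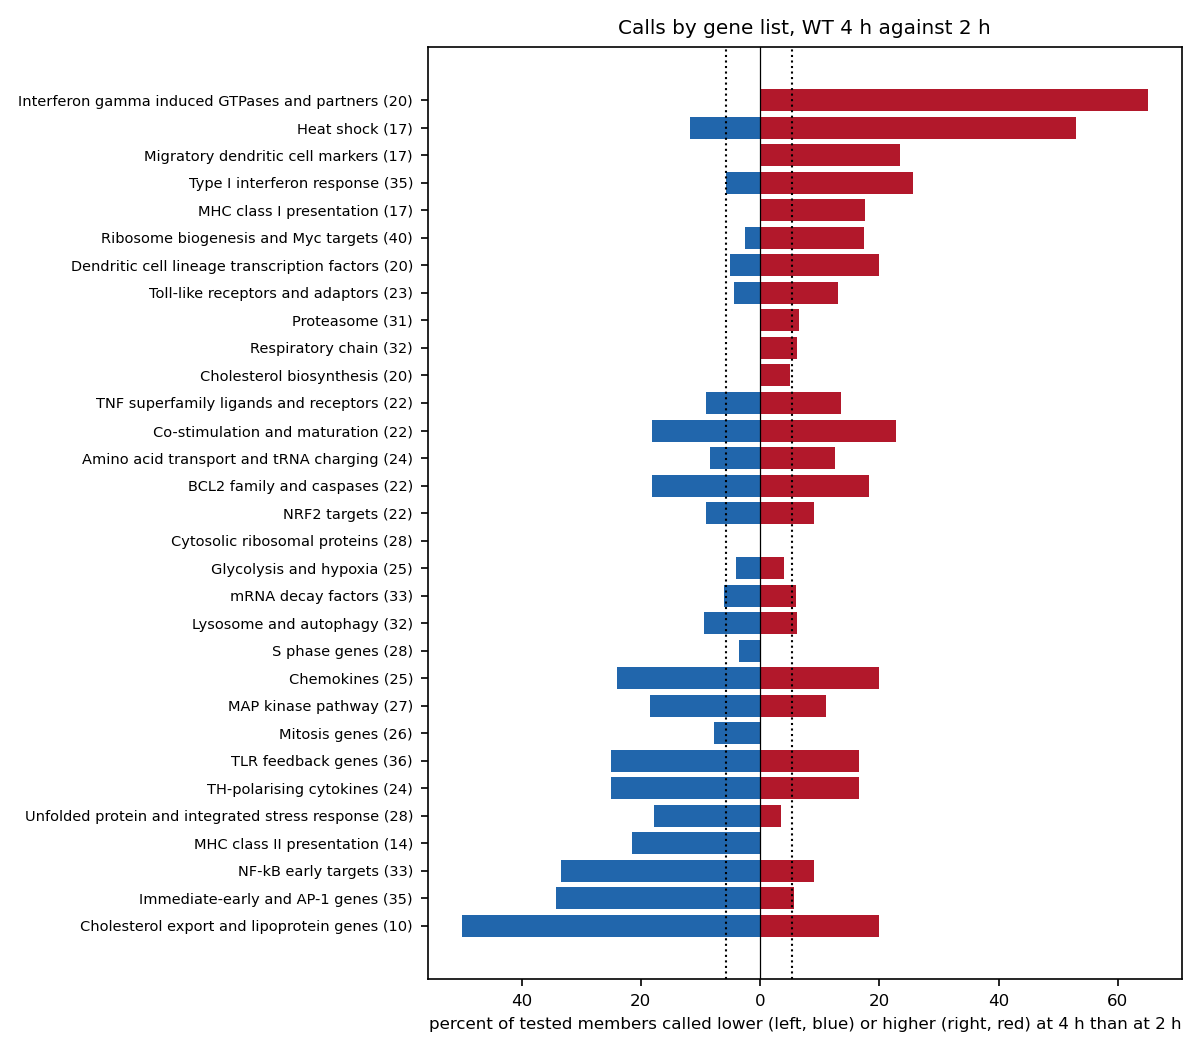
Percent of the tested members of 31 gene lists called lower (to the left) and higher (to the right) at 4 h than at 2 h on WT arrays, with dotted lines at the 5.75% and 5.32% of all tested genes. Interferon gamma induced GTPases and partners (13 of 20) and heat shock genes (9 of 17) reach furthest to the right, and cholesterol export, immediate-early and NF-kB genes reach far to the left.

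Genes that fell between 2 and 4 h included antigen-presentation and B cell genes. Of 14 tested MHC class II genes 0 rose and 3 fell, against 5.32% higher and 5.75% lower of all genes. On the deposited scale 0 were higher and 1 lower. H2-Ob, a subunit of the H2-O molecule that restrains peptide loading, read 6.79 and 6.69 at 0 h, then 6.39 and 6.19 at 2 h, then 5.20 and 5.09 at 4 h (-1.15 ± 0.15, adjusted p = 0.000171). Its partner H2-Oa fell by 0.66 ± 0.13 and H2-Eb2 by 0.67 ± 0.14, the last a call lost without 2 h B or 4 h B (adjusted p up to 0.0637). Both of these were lost on the deposited scale. Among 17 MHC class I genes 3 rose and 0 fell, each call lost without single arrays: H2-M3 (0.41, adjusted p up to 0.115 without 2 h A or 4 h A), Tap2 (0.35, up to 0.136 without any 1 of the 4 arrays) and Canx (0.28, up to 0.255 without 2 h B or 4 h B). H2-O genes are expressed by B cells and some dendritic cells. Bank1, a B cell adaptor, fell by 1.03 ± 0.13 to 5.95 and 5.88 at 4 h, against 7.02 and 6.88 at 2 h, and Cd79b, of the B cell receptor, by 0.95 ± 0.13 to 6.26 and 5.99, against 6.97 and 7.18 at 2 h. Both calls were lost on the deposited scale. Of 12 tested B cell markers 0 rose and 3 fell, with Pax5 below the filter, against 5.32% higher and 5.75% lower of all genes. Of these 3, 1 receded from an early rise, 1 continued an early fall and 1 was first lowered after 2 h. The summed signals of the 12 tested markers were 1051 and 1038 at 4 h, against 1355 and 1370 at 2 h. The part of B cells in the fall of H2-Ob, H2-Oa and H2-Eb2 was not tested.

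Further falls continued an early one. Dnah2, an axonemal dynein heavy chain, read 11.13 and 10.92 at 0 h, then 10.51 and 10.18 at 2 h, then 8.55 and 8.54 at 4 h (-1.80 ± 0.10, adjusted p = 2.58e-08), but its other probe set above the filter gave 0.43 (adjusted p = 0.42). Ndrg4 read 10.47 and 10.46 at 0 h, then 9.36 and 9.48 at 2 h, then 8.07 and 8.12 at 4 h (-1.33 ± 0.09, adjusted p = 3.25e-07). Dpp4, the surface peptidase CD26, read 8.47 and 8.40 at 0 h, then 7.94 and 7.85 at 2 h, then 6.80 and 6.65 at 4 h (-1.17 ± 0.11, adjusted p = 5.19e-06), but its other 3 probe sets gave -0.54, -0.11 and 0.01, of which the first was called. Csf1r, the receptor for macrophage growth factors, fell by 0.62 ± 0.09 to 7.67 and 7.47 at 4 h, against 8.21 and 8.17 at 2 h, a call lost on the deposited scale and when probe sets were averaged. Of 13 tested macrophage and monocyte markers 1 rose and 2 fell, against 5.32% higher and 5.75% lower of all genes. Their summed signals were 3134 and 2980 at 4 h, against 3617 and 3277 at 2 h. The part of macrophages and monocytes in the fall of Csf1r was not tested. Rpl39, among the lowest by size (-1.46 ± 0.35), lost its call without 2 h A, 2 h B or 4 h B (adjusted p up to 0.176) and with eBayes without trend.

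The same step on the arrays labelled KO, where 827 genes were higher (6.46%) and 927 lower (7.25%), ran largely the same way. Of the 681 genes that were higher on the WT arrays, 648 (95.2%) had the same sign and 397 (58.3%) the same call on the KO arrays, with a median of 0.47 on the WT arrays and 0.36 on the KO arrays, and 1 had the opposite call. Of the 736 lower ones 717 (97.4%) had the same sign and 508 (69%) the same call, with medians of -0.55 on the WT and -0.49 on the KO arrays, and 1 the opposite call. Across all 12792 genes the differences of both steps gave Pearson r = 0.571 and Spearman rho = 0.514, as a description. By class, 250 of the 331 receding genes, 169 of the 306 recovering, 50 of the 60 that rose further and 125 of the 172 first raised had the same call. Ifng differed by 2.63 on the WT and 3.22 on the KO arrays, Dusp14 by -1.66 and -1.46, Nfil3 by 1.55 and 1.63, and Sphk1 by 1.47 and 0.88. No gene was called in a limma test of the difference between the 2 steps (smallest adjusted p = 0.123), while 917 had an unadjusted p below 0.05. A missing call in that test does not show that the steps were alike.

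**Figure D5:**
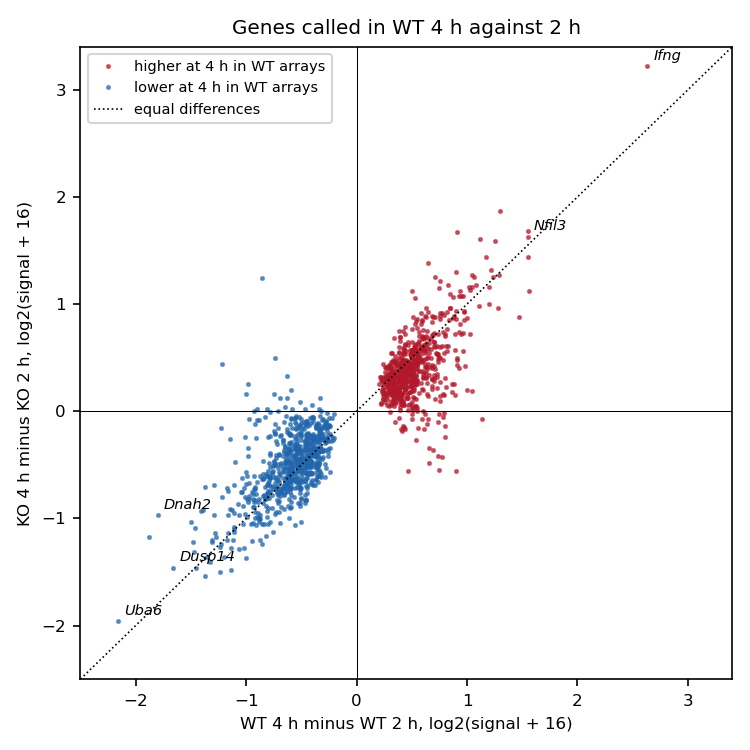
Difference of 4 h minus 2 h in log2(signal + 16) on WT arrays (horizontal) and on arrays labelled KO (vertical) for the 1417 genes called on the WT arrays. Most points lie in the 2 quadrants of equal sign, with 648 of 681 higher and 717 of 736 lower genes sharing the sign.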

How the data were processed

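RNA was hybridised to 12 Affymetrix mouse 3' arrays, 2 per genotype label and time. Linear intensity values of single probe sets were deposited, made with MAS5 per the submitters' processing notes. The sources used here do not give its version. The number of arrays limits the precision.

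The platform annotation gave 34958 of 45101 probe sets 1 gene symbol, 932 several and 9211 none. By Entrez identifier 34754 matched a RefSeq gene table of GRCm38.p6. The probe set with the highest mean stood for its gene. Because trimmed means of the deposited intensities differed 1.79-fold between arrays, signals were quantile normalized and tested as log2(signal + 16), a scale that understates changes of low genes and makes changes relative to the bulk of probe sets. Genes below the 40th percentile of all probe sets (4.73) were left out.

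limma 3.58.1 in R 4.3.3 fitted 6 group means to all arrays (lmFit, eBayes with trend, 6 residual and 9.13 prior degrees of freedom), with two-sided tests and Benjamini-Hochberg adjustment over 12792 genes per comparison. The fit was tested on simulated data. Deviations of arrays with the same letter correlated at 0.053, 0.079 and 0.1, so letters were not taken as pairs.

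The members, lists and comparisons were chosen with earlier results of these data known. Genes named are the 12 highest and 12 lowest calls, up to 4 called members per list, the 6 largest per class, Mapk14 and all measured cytokines, chemokines and NF-kB targets, with any other gene outside the label check said to be chosen after its values were seen. Names that look like clone identifiers and antigen receptor segments were skipped. Alternatives were other scalings, pseudocounts of 1 and 64, other filters, probe set rules, variance models and thresholds, the WT arrays alone, a replicate block and each WT array left out. The kB-like motif was set after a looser one matched most promoters, and motifs were searched with overlapping matches counted.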

Additional observations from a re-analysis of the deposited data

How the results depend on the processing

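Without normalization between arrays, on the deposited scale, 173 genes were higher and 57 lower at 4 h than at 2 h, and 206 of the 1417 calls remained. Early-raised genes then receded in 31 cases, rose further in 6 and held in 134, early-lowered genes recovered in 92 cases and fell further in 7, and 34 genes were first raised and 9 first lowered. With the mean of all probe sets 427 genes were higher, 188 recovered, 39 rose further, 58 fell further and 134 were first lowered. With eBayes without trend 378 were higher, 167 recovered, 26 rose further, 48 fell further, 104 were first raised and 129 first lowered. At adjusted p under 0.1, 461 recovered. With a log2 change of at least 1 also asked, 26 were higher and 59 lower, 33 receded, 6 recovered, 1 rose further, 1 fell further, 101 raised and 33 lowered genes held, 14 were first raised and 8 first lowered. With each WT array left out in turn, 287 to 685 genes were higher, 408 to 741 lower, 207 to 315 receded, 142 to 248 recovered, 26 to 58 rose further, 36 to 76 fell further, 364 to 465 lowered genes held, 76 to 155 were first raised and 101 to 173 first lowered. The replicate block gave 709 higher and 760 lower genes, and the letters do not pair the arrays. Of 163 named calls the deposited scale ended 96, eBayes without trend 39, the mean of all probe sets 37 and trimmed-mean scaling 13. Ctsc turned to -0.07 with the mean of all probe sets, and Tlr12 to -0.2 with only the WT arrays, and with single WT arrays left out it ran between -0.06 and 0.94. The cause of these changes was not tested. With 2 arrays a group the median SE of a difference was 0.153, and no scanner background was used here. The ligand and time in culture cannot be told apart.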

Other observations

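Genes of blood vessels, which were not among the lists and were chosen after their values were seen, lay lower at 4 h than at 2 h. Of 22 tested 15 were called lower and 0 higher, with differences from -1.24 to -0.15. On the deposited scale 5 were lower, and without any 1 of the 4 arrays 11 to 13 were. Sele, the adhesion molecule E-selectin of activated endothelium, read 7.52 and 7.69 at 4 h, against 8.95 and 8.74 at 2 h (-1.24 ± 0.11, adjusted p = 3.26e-06), and Glycam1, a mucin of lymph node venules, read 9.18 and 9.42 at 4 h, against 10.34 and 10.13 at 2 h (a difference of -0.94). Sox18, a transcription factor of endothelium, and Smad6, an inhibitor of bone morphogenetic protein signalling, differed by -1.12 and -1.14. Flt1 and Icam2 differed by -0.15 each, without a call. Because the genes were chosen for their fall, the count is a description. The shares over all genes tested were 5.75% lower and 5.32% higher. The stromal and endothelial marker list held 4 genes called lower and 0 higher of 16 (1 lower and 1 higher without 2 h A, 1 lower without 4 h A, 2 lower without 2 h B or 4 h B), and its summed signals were 1571 and 1393 at 4 h, against 1781 and 1501 at 2 h.

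Besides Jag1 another Notch ligand receded. Dll4 read 7.44 and 7.62 at 4 h, against 8.55 and 8.73 at 2 h (-1.11 ± 0.13, adjusted p = 3.45e-05), while the Notch target Hes1 differed by -0.05. Of 13 Notch pathway genes, also chosen after their values were seen, 3 were higher and 2 lower, against 5.32% and 5.75% of all genes. Only 1 was higher without any 1 of the 4 arrays, with eBayes without trend, in a fit of the WT arrays alone, when probe sets were averaged and on the deposited scale. The calls of Lfng and Rbpj were lost without any 1 of the 4 arrays (adjusted p up to 0.242 and 0.166), and that of Dtx1 when probe sets were averaged (adjusted p = 0.35). Of 8 surface receptors, chosen in the same way, 5 were higher and 3 lower (2 and 2 on the deposited scale). Among them Gpr183, a receptor for oxysterols that positions dendritic cells in lymphoid tissue, read 9.53 and 9.43 at 4 h, against 10.77 and 10.78 at 2 h (-1.29, adjusted p = 3.25e-07). Cxcr4, the receptor for CXCL12, read 8.49 and 8.32 at 4 h, against 7.84 and 7.80 at 2 h (0.59, adjusted p = 0.00074), a call lost on the deposited scale.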
